A study of Mus musculus with 16 samples.

Results

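The major urinary protein genes are a tandem family of lipocalins, small secreted proteins with a barrel that holds a hydrophobic ligand. The family genes Mup3, Mup7, Mup10, Mup11, Mup12, Mup17, Mup18, Mup20 and Mup21 were taken by exact gene name. They are 9 of the 25803 genes in the joined tables and 9 of the 22 named Mup and a number. The family was selected on the refed samples: Mup18 was among the largest falls in refed knockout against refed control liver. Values from refed libraries are therefore given as a description: the genes that the fit calls in those contrasts are counted beside the share of all genes called, without p-values, and support nothing. Only the fasted comparison is used as a test of the members. Why the other 13 Mup genes are not on the list is not given in the sources used here. All 9 members passed the filter on low counts.

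Mouse liver makes these proteins, most of all in males, and they pass through the blood into the urine, where they carry volatile pheromones and act as scent marks themselves. Growth hormone, secreted in pulses in males, is a known driver of their transcription through its receptor, the kinase JAK2 and the transcription factor STAT5B. Mup20 encodes darcin, a male scent protein that attracts females.

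All mice were males kept on a high-fat diet (HFD) for 12 weeks, and bulk RNA sequencing of liver gave 16 libraries. Control mice, called WT in the design text, and mice with liver knockout of Cpt1a (LKO), the enzyme that lets long-chain fatty acids into mitochondria, were each sampled after 16 h without food (fasted) or when that fast had been followed by 6 h of feeding (refed). Each of the 4 groups has 4 libraries. Diet, sex and the preceding fast were thus common to all 4 groups, and no group stayed unfasted. The strain, the age and the Cre driver or other means of the knockout are not given in the sources used here. The control libraries are S40 to S43 (fasted) and S48 to S51 (refed), and the LKO libraries are S44 to S47 (fasted) and S52 to S55 (refed). Values per library are given in order of library number within a group. The labels do not say that samples came from separate mice, so p-values measure the spread between these samples.

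Library totals ran from 14721601 to 24618230 counts. Levels are in CPM, the counts scaled to a library total of 1000000 after TMM correction of the totals. Cpt1a itself was 486 ± 83.1 CPM (SD, n = 4) in fasted control and 100.4 ± 17.3 in fasted LKO, and 456 ± 137 and 54.2 ± 16.6 in the refed groups, with no overlap of genotypes in either state. The 8 hepatocyte markers were all detected, and their summed level was 81193 to 89347 CPM in fasted control and 65462 to 76612 in fasted LKO. In refed control it was 77867 to 98036 CPM and in refed LKO 69145 to 80179. Summed markers of Kupffer, endothelial and stellate cells stayed at or below 416, 153 and 279 CPM in the 16 libraries, and those of lymphocytes at or below 5.99. Summed cholangiocyte markers were 45.8 CPM in S44 and 4.14 to 10.9 elsewhere. Summed adipocyte markers were 46.5 to 132 CPM in fasted control and 153 to 354 in fasted LKO, without overlap, and 10.6 to 116 and 66.3 to 110 CPM in refed control and LKO. Of these, Cidec, a lipid droplet gene, was called higher and Cfd lower in fasted LKO. The other adipocyte markers, Lep, Adipoq and Plin1, had 0 counts in 15, 11 and 6 of the 16 libraries, and at most 4, 9 and 10 counts. The 3 red blood cell markers summed to 356 to 1174 CPM in fasted control and 273 to 462 in fasted LKO, with Alas2 called lower, and to 251 to 686 and 205 to 868 CPM in refed control and LKO. The part of these other cell types in the results was not tested. In bulk liver, fewer cells of a type and less RNA per cell cannot be told apart.

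All 9 members lie on the minus strand of chromosome 4, between 60066469 and 62069100 in the deposited coordinates (mm39 per the submitters' processing notes). From the low to the high coordinate the order is Mup7, Mup10, Mup11, Mup12, Mup17, Mup18, Mup20, Mup3 and Mup21. Mup18 spans 61588414 to 61592373, Mup10 60534259 to 60538198, Mup17 61510166 to 61514108 and Mup20 61968471 to 61972395. Of the 9, 6 are close copies. Among Mup7, Mup10, Mup11, Mup12, Mup17 and Mup18 the coding sequences of GENCODE M21 (GRCm38) differed by 1 to 7 bases of 543 or 546 aligned, and Mup11 and Mup18 by 1 of 546. Mup20 differed from the 6 by 46 to 51 bases, Mup3 by 82 to 87 and Mup21 by 81 to 86, while Mup3 and Mup21 differed from each other by 20 of 546.

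The stretch of coding exon that holds the only coding difference between Mup11 and Mup18 shows how little there is to tell the copies apart. It runs from coding position 234 to 294 of Mup18, counted from 1 at the A of the start codon, and the substitution from Mup11 to Mup18 is G252C. In Mup18 the capital marks that base, and in the other genes capitals mark bases that differ from Mup18. Mup7 and Mup17 have the same 61 bases as Mup10 here. Positions are on the minus strand of GRCm38, chr4:61672625-61672685 for Mup18 and chr4:60660901-60660961 for Mup11.
Mup18: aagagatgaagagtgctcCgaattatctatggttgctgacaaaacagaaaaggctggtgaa
Mup11: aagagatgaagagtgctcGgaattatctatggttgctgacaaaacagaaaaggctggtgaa
Mup12: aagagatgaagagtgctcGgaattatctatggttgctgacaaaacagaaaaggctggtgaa
Mup10: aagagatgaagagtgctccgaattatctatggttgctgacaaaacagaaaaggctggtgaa
Mup20: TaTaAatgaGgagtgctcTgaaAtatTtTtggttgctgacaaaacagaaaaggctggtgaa
Mup3: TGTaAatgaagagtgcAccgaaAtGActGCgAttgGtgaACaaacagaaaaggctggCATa
Mup21: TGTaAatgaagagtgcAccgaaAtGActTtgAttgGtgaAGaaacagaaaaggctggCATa

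A read takes its gene from the letters it covers. Of all 100-base windows in the Mup18 transcript, 12.9% (107 of 831) occurred in no other Mup or Mup pseudogene transcript. The share was 14.6% for Mup7 and for Mup10, 16.5% for Mup11, 22.5% for Mup12 and 40.6% for Mup17. It was 61.2% for Mup20, 95.5% for Mup21 and 96.9% for Mup3. How the authors' counting treated reads that match several genes is not given in the sources used here, so counts of single close copies are uncertain, and the sum of the 9 is given beside them.

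Upstream sequence was in the RefSeq table (GRCm38.p6) for 7 of the 9, all but Mup12 and Mup20. The 120 bases before the annotated start are shown for 3 close copies whose levels differed most between libraries, and for Mup3, whose level varied least by that ratio. Capitals mark TATATAA, an AT-rich motif of the kind found in core promoters. The positions are chr4:61674095-61674214, chr4:61595833-61595952, chr4:60582156-60582275 and chr4:62087318-62087437 in the order printed, all on the minus strand.
Mup18: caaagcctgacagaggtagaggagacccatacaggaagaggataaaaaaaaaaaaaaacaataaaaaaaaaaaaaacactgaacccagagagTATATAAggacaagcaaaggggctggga
Mup17: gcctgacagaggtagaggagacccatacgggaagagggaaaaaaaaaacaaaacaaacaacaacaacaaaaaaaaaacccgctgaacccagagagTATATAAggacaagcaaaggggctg
Mup10: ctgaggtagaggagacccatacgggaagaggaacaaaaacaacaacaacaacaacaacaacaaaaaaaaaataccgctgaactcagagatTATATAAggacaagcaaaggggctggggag
Mup3: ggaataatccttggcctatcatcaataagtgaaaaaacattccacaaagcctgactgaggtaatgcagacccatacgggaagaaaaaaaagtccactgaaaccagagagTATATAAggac

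Motifs were searched on both strands over 300 bases (250 before to 50 after the start). TATATAA occurred in 6 of the 7 member windows, all but that of Mup7, and in 3.24% of 32851 RefSeq windows. The annotated start of Mup7 is out of register: the last bases before it match the first of the 120 bases before the Mup11 start. A matching site could lie beyond the Mup7 window, so Mup7 was not shown to lack the motif. TTCNNNGAA, the spaced palindrome that STAT factors bind, occurred in 0 of the 7 member windows and in 8.30% of all windows. With 7 windows of related sequence, 0 lies near that share, and sites outside the windows were not searched. Aligned end to end, the printed stretches of Mup17 and Mup18 differed at 8 of 113 aligned bases, with 14 gap bases. Those of Mup3 and Mup18 differed at 36 of 103, with 34 gap bases. The stretches were cut at annotated starts, and TATATAA begins 28 bases before the start in Mup18 and 11 in Mup3. Some bases shared by Mup3 and Mup18 were set against other bases, so the 36 does not measure how far these promoters diverge.

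Per kilobase of gene length and averaged over the 16 libraries, Mup3 had the highest level at 5753 CPM per kb, followed by Mup20 at 3129.5, Mup7 at 2737, Mup12 at 2225 and Mup17 at 1121. Mup21 (221), Mup10 (172) and Mup11 (166) were far lower, and Mup18 was last with 16.2 CPM per kb. The deposited lengths of Mup10 and Mup11, 1391 and 1576 bases, exceed their GENCODE M21 transcripts of 927 and 930, while Mup21 has 677 in both. The place of Mup10 and Mup11 below Mup21 depends on that choice of length. Neighbours from Mup20 to Mup12 and from Mup21 to Mup11 differed by less than the spread of their values between libraries, which ran over 3.24-fold for Mup20, 48.9-fold for Mup7 and 55.7-fold for Mup12. The order therefore holds for the mean of these libraries and not in each of them.

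**Figure D1:**
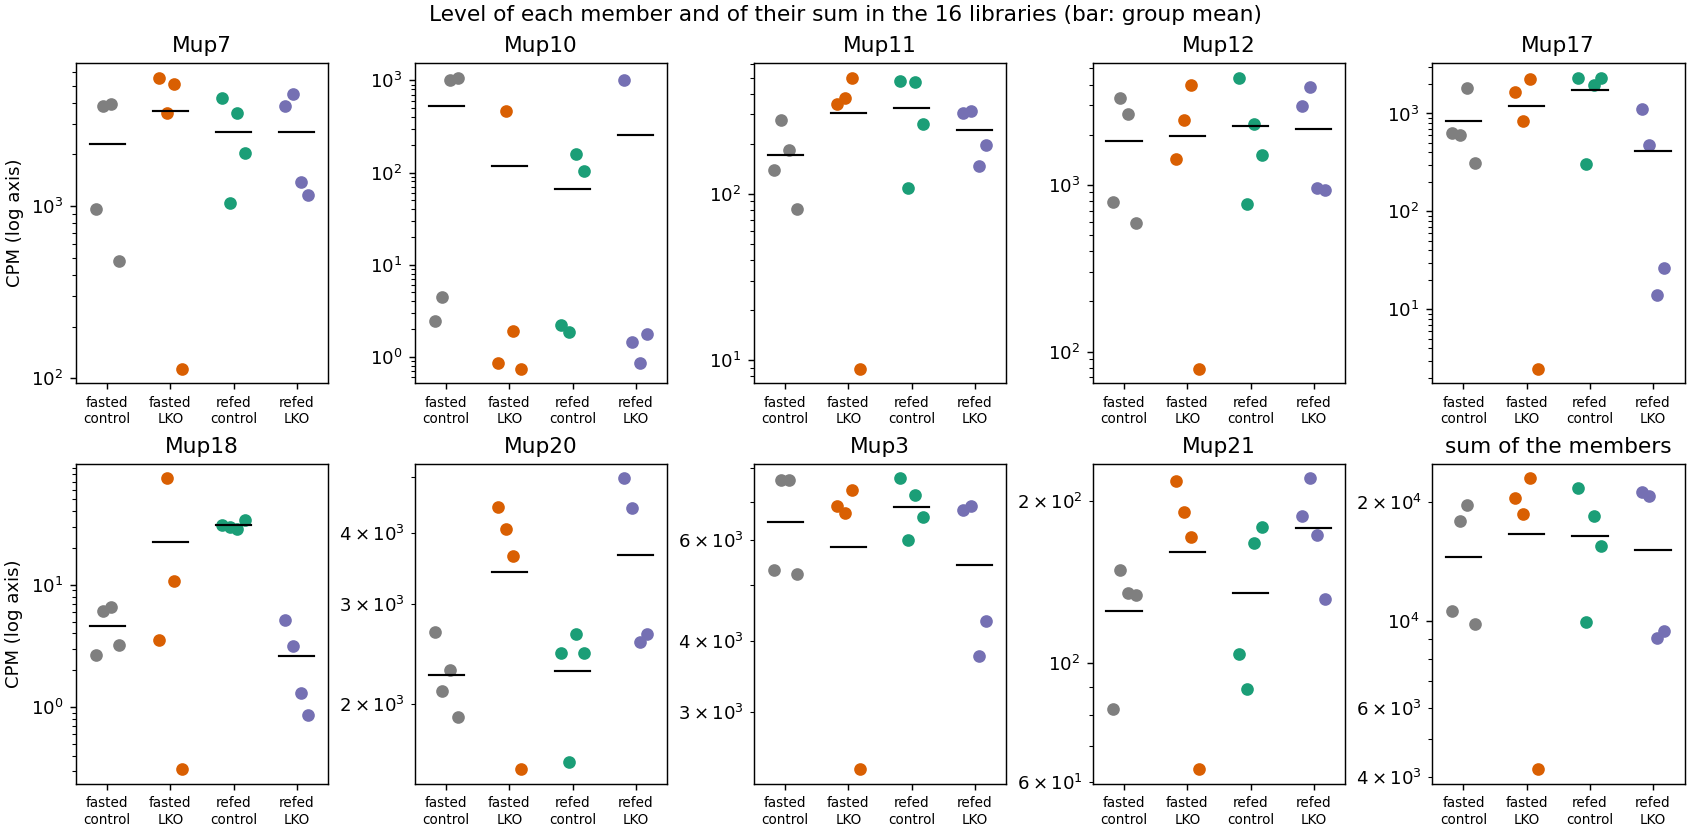
Level of each of the 9 members and of their sum in the 16 libraries, in CPM on a log axis that differs between panels. Points are libraries and the black bar is the group mean; Mup18 holds between 28.8 and 33.8 CPM in refed control, while Mup10 is at most 4.49 or at least 102.7 CPM.

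The 3 members most distinct in sequence, Mup3, Mup20 and Mup21, varied least, over 3.23-fold to 3.49-fold between the lowest and highest of the 16 libraries. Mup3 measured 5315, 7648, 7632 and 5232 CPM in fasted control and 6890.1, 6684, 7339 and 2383 in fasted LKO. It was 7693, 5996, 7193 and 6573 CPM in refed control and 6775, 6874, 3763 and 4324 in refed LKO. The lowest value was that of S47 in the fasted LKO group, and the genotypes overlapped in both states. Mup21, the shortest of the 9 at 677 bases, ran from 81.8 to 149 CPM in fasted control, 63.3 to 219 in fasted LKO, 89.5 to 179 in refed control and 132 to 221 in refed LKO.

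Mup20, the darcin gene, measured 2683, 2109.9, 2297 and 1900.2 CPM in fasted control and 4431, 4064, 3643 and 1539 in fasted LKO. Of the 4 fasted LKO libraries, 3 were above every fasted control and S47 was below all of them. The log2 fold change was 0.61 (SE 0.28) with an adjusted p of 0.179 by edgeR's quasi-likelihood test, and without S47 it was 0.85 with an adjusted p of 0.0221. Over all 15 alternative settings it ran from 0.46 to 0.85. Mup20 was called in 1 of them, the fit without S47, and not in the other 14. After refeeding it was 2457, 1586, 2660.3 and 2461 CPM in control and 4984, 4423, 2569.9 and 2659 in LKO, a log2 difference of 0.68 (SE 0.28), with overlap of the lower LKO and the higher control libraries.

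Mup18 was the rarest of the 9. It measured 2.68, 6.12, 6.57 and 3.21 CPM in fasted control and 3.54, 74.5, 10.8 and 0.310 in fasted LKO. The fasted LKO library S45 was far above the rest and S47 below all controls. The log2 fold change was 2.27 (SE 0.90), with an adjusted p of 0.113 by edgeR. Without S45 it was 0.09 with an adjusted p of 0.952, and without S47 it was 2.68 with an adjusted p of 0.0259. In limma-voom, with all libraries kept, it was 0.45 with an adjusted p of 0.833.

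After refeeding, Mup18 was 30.6, 29.6, 28.8 and 33.8 CPM in control and 5.16, 3.14, 1.30 and 0.865 in LKO, with no overlap. This is the difference by which the family was noticed, and its log2 value was -3.56 (SE 0.96). The 4 refed controls had a mean of 30.7 ± 2.19 CPM (SD), a narrower relative spread than in the other 3 groups, where the mean and SD were 4.64 ± 1.98 (fasted control), 22.3 ± 35.1 (fasted LKO) and 2.62 ± 1.96 (refed LKO). Refed minus fasted, Mup18 was 2.73 higher on the log2 scale in control (SE 0.90) and -3.10 in LKO (SE 0.95).

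Mup10 was either present or almost absent. In fasted control it was 2.43, 4.49, 1006 and 1070.3 CPM, in fasted LKO 0.847, 467, 1.90 and 0.745, in refed control 2.23, 1.86, 158 and 103, and in refed LKO 1011, 1.44, 0.864 and 1.77. Of the 16 libraries, 6 were at 102.7 CPM or more and 10 at 4.49 or less, and every group held both kinds. The ratio of the highest to the lowest library was 1437. The fasted log2 fold change of -2.15 had an SE of 2.27 and an adjusted p of 0.599 by edgeR, and without S45 it was -8.80 with an adjusted p of 0.0833.

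Mup17 was of the same kind, but in fewer libraries. It was 629, 599.8, 1836 and 315 CPM in fasted control, 1647, 843, 2250.3 and 2.48 in fasted LKO and 2322, 305, 1934 and 2309 in refed control. In refed LKO it was 1119, 477, 14.1 and 26.5 CPM. The 3 lowest libraries, S47, S54 and S55, all came from LKO livers, and the other 13 were at 305 CPM or more. The fasted log2 fold change was 0.49 (SE 1.24, adjusted p 0.847 by edgeR), and the refed difference was -2.07 (SE 1.29), with overlap in both states.

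Mup7, Mup12 and Mup11 were the remaining close copies. Mup7 ran from 479 to 3937 CPM in fasted control, 114 to 5582 in fasted LKO, 1048 to 4274 in refed control and 1162 to 4493 in refed LKO. Mup12 ran from 590.2 to 3306, 79.0 to 3954, 769 to 4399 and 927 to 3857 CPM in the same order of groups, and Mup11 from 80.9 to 277, 8.88 to 499, 108 to 473 and 147 to 314 CPM. In each of these genes S47 held the lowest value of all 16 libraries, and the ranges of all 4 groups overlapped. The fasted log2 fold changes were 0.63 (SE 0.82) for Mup7, 0.11 (SE 0.82) for Mup12 and 0.85 (SE 0.71) for Mup11, with adjusted p-values of 0.676, 0.956 and 0.480 by edgeR.

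Of the 9 members, 0 passed the test in fasted LKO against fasted control (edgeR, adjusted p under 0.05), where 12.2% of the 14488 genes tested were called. At an unadjusted p under 0.05 there were 2, Mup18 and Mup20, and DESeq2 and limma-voom also called 0. The log2 fold change was above 0 for 7 members and below 0 for 2, with a median of 0.49 beside 0.02 over all genes tested. The close copies may exchange reads, so these are not 9 separate values. In limma-voom, Mup11, Mup12 and Mup17 were below 0. The groups did not overlap for 0 of 9 members, against 16.9% of all genes. Without S47 the count was 2, Mup18 and Mup20. The hepatocyte markers did not set S47 apart, with a sum of 76612 CPM in that library and 65462 to 76243 in the other fasted LKO libraries.

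**Figure D2:**
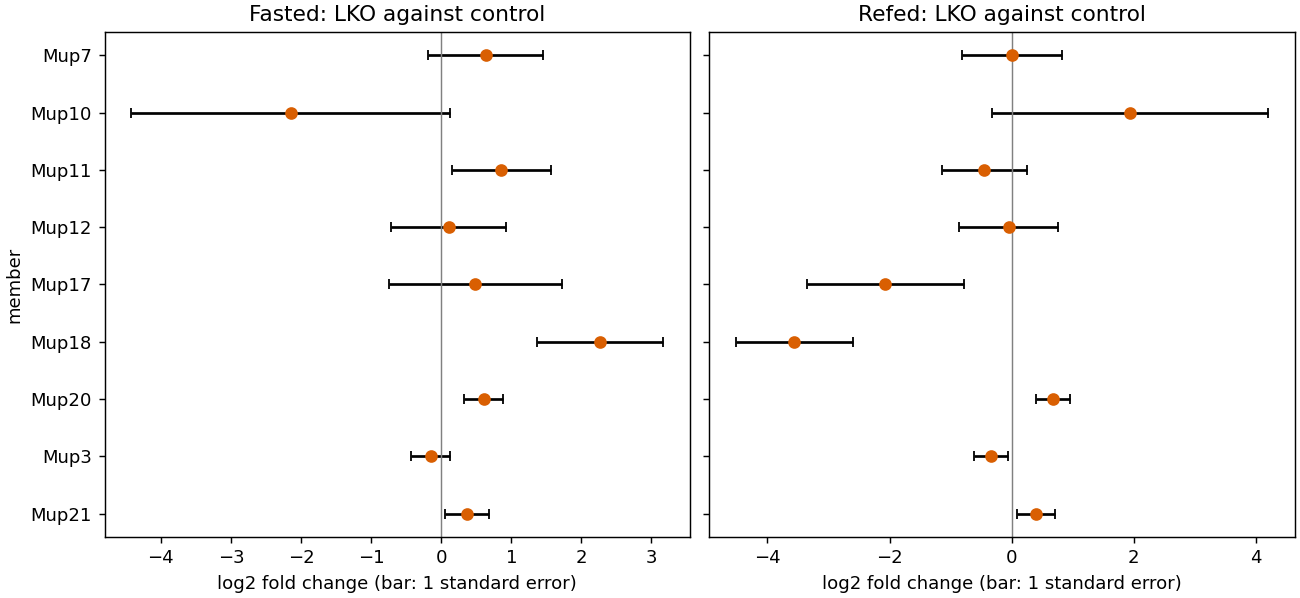
Log2 fold change of each member in LKO against control, fasted on the left and refed on the right, with bars of 1 standard error. Standard errors run from 0.28 for Mup3 to 2.27 for Mup10 in the fasted contrast, and Mup18 lies at 2.27 fasted and -3.56 refed.

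In refed LKO against refed control, 1 of 9 members was called, beside 3.63% of all genes. It was Mup18, whose difference in this contrast brought the family into view, so the call was given by the choice. In CPM, 1 of 9 had groups without overlap, beside 11.7%. The log2 difference was above 0 for 3 members (Mup10 1.93, Mup20 0.68, Mup21 0.40) and below 0 for 6. In refed against fasted control 0 of 9 were called, beside 15.4% of all genes, and in refed against fasted LKO 1 of 9 (Mup18), beside 18.1%. For the difference between genotypes in the refeeding response, 0 of 9 were called, beside 0.538%, and for Mup18 that difference was -5.83 on the log2 scale (SE 1.31). These contrasts use the refed libraries and share groups with each other, so nothing is read from their counts.

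The sum of the 9 did not separate the groups. It was 10603, 17936, 19708 and 9804 CPM in fasted control, 20539.6, 18634, 22993 and 4190.2 in fasted LKO, 21755, 9932, 18428 and 15477 in refed control and 21166, 20664, 9012 and 9428 in refed LKO. Group means were 14513 ± 5039, 16589 ± 8456, 16398 ± 5015 and 15068 ± 6757 CPM (SD, n = 4). Every group held at least 1 library at or below 10603 CPM and at least 1 at or above 19708. The log2 ratio of the means was 0.19 for LKO against control fasted, -0.12 refed, 0.18 for refed against fasted in control and -0.14 in LKO, all smaller than the pooled SD of the log2 sum within groups, 0.76.

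**Figure D3:**
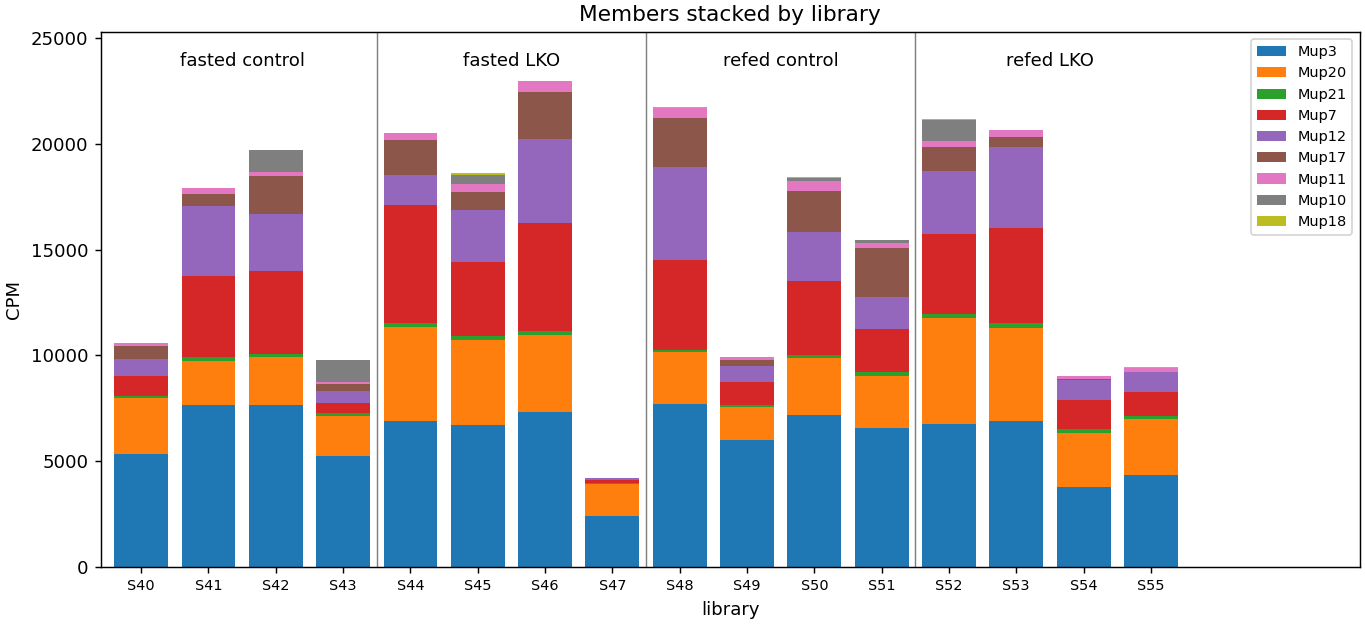
CPM of the 9 members stacked for each of the 16 libraries, grouped as fasted control, fasted LKO, refed control and refed LKO. The Mup3 segment changes little beside those of Mup7, Mup12 and Mup17, and the S47 bar, 4190.2 CPM, is mostly Mup3 and Mup20.

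The 6 close copies together ran over a wider range than the other 3 members. Together they measured 2523, 8029, 9643 and 2538 CPM in fasted control and 9000.0, 7695, 11839 and 205 in fasted LKO. They measured 11501, 2261, 8407 and 6264 CPM in refed control and 9219, 9147, 2507 and 2314 in refed LKO. In S47 the 6 together were below the Mup3 and the Mup20 level of the same library. Within groups, the pooled SD of log2 CPM was 4.36 for Mup10, the highest of all 14488 genes tested, and 2.91 for Mup17, the third. It was 1.69 for Mup18, 1.68 for Mup7, 1.60 for Mup12 and 1.53 for Mup11, ranks 18 to 27. For Mup21 (0.54), Mup3 (0.48) and Mup20 (0.47) it was lower, beside a median of 0.23 over all genes. Among the 7559 genes with a mean of at least 10 CPM the median was 0.154, and these 3 ranked 246, 318 and 325 from the top, so they too varied more than most genes of such levels.

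**Figure D4:**
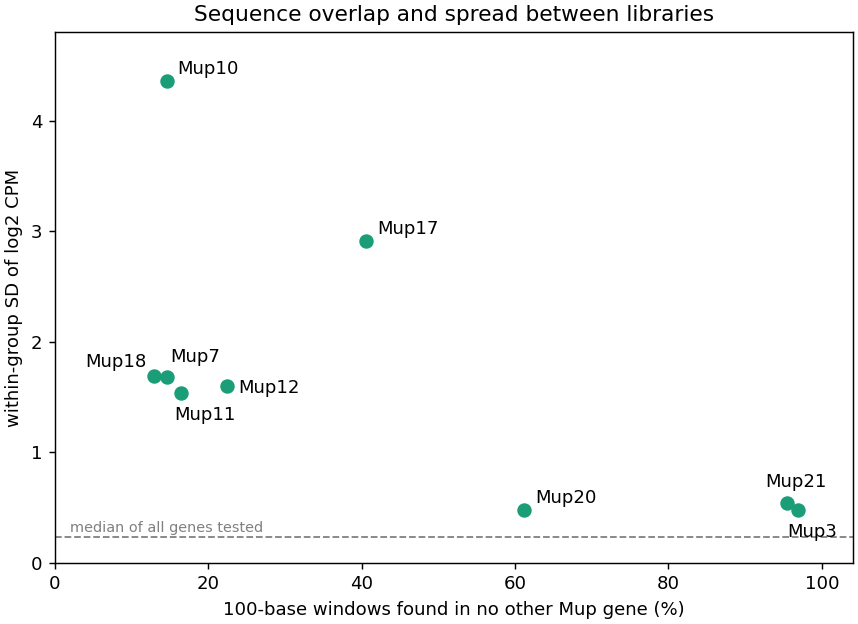
Share of 100-base windows found in no other Mup gene (x axis, %) against the within-group SD of log2 CPM (y axis) for the 9 members, with the median of all genes tested as a dashed line. The 6 members at or below 40.6% have an SD of 1.53 or more and the 3 at or above 61.2% an SD of 0.54 or less.

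The 13 Mup genes outside the list had a lower sum, 513 to 2624 CPM in fasted control, 807 to 4339 in fasted LKO, 1658 to 5111 in refed control and 900.5 to 2234 in refed LKO. Of these, 10 passed the filter, and 0 of 10 were called in the fasted contrast by edgeR, beside 12.2% of all genes, with 2 at an unadjusted p under 0.05. Mup22 was the most abundant at a mean of 1355 CPM.

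The growth hormone pathway to these genes was measured with 10 genes, of which 1 was called lower and 0 higher in fasted LKO, beside 12.2% of all genes. The median log2 fold change of the 10 was -0.28, beside 0.02 over all genes. Ghr, the growth hormone receptor, was 426 ± 27.8 CPM in control and 284 ± 47.4 in LKO (SD, n = 4; log2 -0.59, SE 0.11, adjusted p 0.00272 by edgeR). Stat5b, which carries the signal to the nucleus, was 45.3 ± 5.94 CPM in control and 39.3 ± 7.76 in LKO (adjusted p 0.314 by edgeR). Igf1, a growth hormone target, was 403 ± 46.7 and 418 ± 69.9 CPM (adjusted p 0.860 by edgeR), and Socs2, a feedback inhibitor, 4.24 ± 2.17 and 12.1 ± 6.57 CPM (adjusted p 0.110 by edgeR).

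Of 13 liver transcription factors on the list for the Mup promoters, 12 were tested, and 1 was called lower and 0 higher, beside 12.2% of all genes, with a list median of -0.21. Cebpb, a bZIP factor of the acute phase, was 378 ± 123 CPM in fasted control and 224 ± 46.3 in fasted LKO (log2 -0.76, SE 0.24, adjusted p 0.0481 by edgeR). Hnf4a, Cebpa and Zhx2 did not pass, with log2 fold changes of -0.21, -0.25 and -0.20. Of 15 male-biased liver genes outside the family, 2 were called lower and 0 higher, beside the same 12.2%. They were Cyp2u1 (log2 -0.77, SE 0.20, adjusted p 0.0198 by edgeR) and Nudt7, a peroxisomal CoA hydrolase (log2 -0.81, SE 0.24, adjusted p 0.0362 by edgeR), and the median of the list was 0.28. Of 20 female-biased genes 10 were tested and 3 were called, again beside 12.2%. Acot3 (log2 1.04, adjusted p 0.0214 by edgeR) and Cyp4a14 (log2 1.83, adjusted p 0.00148), also known as PPARα targets, were called higher. Hao2 was called lower (log2 -2.82, adjusted p 0.0240 by edgeR) at 1.06 CPM or less on average in both groups, and the median of the 10 was -0.10.

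Among 20 lipocalin relatives and abundant secreted liver proteins, 19 were tested, 5 were called lower and 0 higher in fasted LKO, beside 12.2% of all genes called in either direction. The list median was -0.29, beside 0.02 over all genes. Ahsg (fetuin A) was 7020.3 ± 609 CPM in control and 4960.4 ± 454 in LKO (log2 -0.50, SE 0.11, adjusted p 0.00908 by edgeR). Ttr (transthyretin), Fgb (fibrinogen beta) and Serpina1b had log2 fold changes of -0.59, -0.51 and -0.32. The fifth, Ptgds, was near the limit of detection at 1.19 and 0.0903 CPM. Alb, the gene of albumin, was 48159 ± 2974 and 39461 ± 5155 CPM (log2 -0.29, adjusted p 0.135 by edgeR). The hepatocyte marker sum was lower in every fasted LKO library than in every fasted control, as given above, and its part in these values was not tested. Alb, Ttr and Apoa1 are in both lists and Alb is the most abundant marker, so the sum is not separate from these values. Apoa1 was the only marker in the sum with a log2 fold change above 0 (0.37, not called).

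Over the 16 libraries, the genes whose log2 level was most like the summed members, among 8872 protein-coding genes, were Cadm4 (Pearson r 0.76), Gstp1 (0.76), Whamm (0.75), Obp2a (0.74) and Atrnl1 (0.73). Obp2a encodes another odorant-binding lipocalin, and ran from 0.617 to 24.6 CPM. The genes most unlike it were Snx15 (r -0.78), Tmem176b (-0.77), Lhfp (-0.76), Sparc (-0.75) and Zmynd15 (-0.73). These are the extremes of many correlations over points that share depth and scaling, and r for Cadm4 was 0.47 without S47 and for Obp2a 0.73. Sparc, a matrix protein, was 85.4 CPM in S47 and 89.9 in S43, and 44.3 to 72.9 in the other 14.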

How the data were processed

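The authors deposited 4 tables of raw read counts per gene, 8 libraries in each, with log2 fold changes, p-values and gene lengths in bases. Per the submitters' processing notes, HISAT2 2.0.5 and mm39 were used. Counting tool, strand and multi-mapped read handling are not given in the sources used here. Count columns were assigned to groups by the table headings. Here, 0 counts differed between tables, and 64 further per-library columns were not used. The authors' log2 fold changes and p-values are not printed.

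Counts were fitted in R 4.3.3 with edgeR 4.0.16 (filterByExpr, 14488 genes; TMM factors 0.941 to 1.07; glmQLFit, 4 groups as 1 factor; Benjamini-Hochberg over all genes). The fit was first run on simulated data in which every gene had the same dispersion. The close copies varied more than that, so the simulation does not show how the test performs for them. Alternatives were DESeq2 1.42.0, limma-voom (limma 3.58.1), other scalings and filters, and each fasted library left out. The quasi-likelihood test gives no SE, so the SE of an edgeR log2 fold change is its absolute value divided by the square root of the F statistic. CPM used TMM-scaled totals. The members and lists were chosen with earlier results of these data known. Likeness was ranked among protein-coding genes with a mean of at least 5 CPM, and the 5 highest and 5 lowest are named. Names that start with Mup, start with Gm and a digit, or end with Rik were excluded. Counting error depends on the count, 5 to 180898 per library over the members. It covers neither the spread between libraries nor reads shared between copies.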

Additional observations from a re-analysis of the deposited data

Results flagged for a closer look

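Within groups of 4, 4 of 40 sets of values (9 members and their sum) had 1 library far from the others by Dixon's test, and chance flags about 1 in 20 groups. Mup3 was 2383 CPM in S47, with the next fasted LKO library at 6684. Mup10 was 467 CPM in S45 of the fasted LKO group and 1011 in S52 of the refed LKO group, where the next libraries were at 1.90 and 1.77. Mup18 was 74.5 CPM in S45, with the next fasted LKO library at 10.8.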

How the results depend on the processing

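No paired analysis was possible because the count columns carry no replicate number. The number of members called in the fasted contrast was 0 under every alternative with all 8 fasted libraries and ranged from 0 to 2 over libraries left out, with 2 without S47. Direction turned for Mup11 (-0.0068), Mup12 (-0.49) and Mup17 (-1.23) in limma-voom, where Mup18 was 0.45, and over libraries left out the log2 value ranged from -0.28 to 0.11 for Mup3 (0.11 without S47), -0.48 to 0.55 for Mup12 and -0.024 to 1.19 for Mup17; the cause was not tested. The log2 ratios of the sum moved by less than the pooled SD under every scaling, with all Mup genes summed and over libraries left out. That SD, 0.76, is a spread of single libraries and exceeds the ratios themselves, so this does not show that they are stable. Over libraries left out, the fasted ratio of LKO to control ran from -0.0058 to 0.51. At an adjusted p under 0.01, the genes called over all genes numbered 663 and 127 for LKO against control fasted and refed, 822 and 1265 for refed against fasted control and LKO, and 0 for the interaction. DESeq2 called 924 genes refed and 458 for the interaction. Low counts limit Mup18, at 5 counts in S47.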

Other observations

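The pseudogenes of the family were singled out after their values were seen, so they are given as a description only. Of 10 Mup pseudogenes tested, 5 were called lower and 0 higher in fasted LKO by edgeR, beside 12.2% of all genes. Groups did not overlap for 5, beside 16.9%. The filter could be passed on the counts of control libraries alone, so a pseudogene high in control could be tested through those. Nothing is therefore read from these counts of pseudogenes or from the single calls named below. Mup-ps13, the second most abundant, was 18.8, 19.4, 23.0 and 17.6 CPM in fasted control and 9.22, 9.27, 11.8 and 6.71 in fasted LKO (log2 -1.09, SE 0.27, called lower). Mup-ps16 was 6.15, 6.65, 8.90 and 9.63 against 2.24, 2.66, 4.14 and 1.43 CPM (called lower). Mup-ps14 was 3.22, 8.05, 5.87 and 4.81 against 0.349, 0.622, 0.504 and 0.373 CPM (called lower), and Mup-ps12 was also called lower. So was Mup-ps20, but on 6 to 13 counts per library in fasted control and 0 to 4 in fasted LKO, near the limit of detection. Its log2 difference was 0.47 in refed LKO against control, and it was called higher in refed against fasted LKO (log2 2.51). Mup-ps19, the most abundant at a mean of 282 CPM, had a log2 fold change of 1.49 and was not called. Refed, 3 of the 10 were called lower, beside 3.63% of all genes. They were Mup-ps13, Mup-ps14 and Mup-ps16, and S49 of the refed control group held their lowest control values, 8.81, 0.690 and 1.49 CPM. Which gene of the family these reads came from was not tested.

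In the refed contrast, through which the family was noticed, 2 of the 10 tested Mup genes outside the 9 were called lower, beside 3.63% of all genes, and nothing is read from the count. Mup16 was 124 to 232 CPM in refed control and 28.3 to 81.8 in refed LKO, without overlap. Mup9 was 1.33 to 54.6 CPM in refed control and 0.649 to 3.68 in refed LKO, with overlap. All 10 of these had a log2 difference below 0 in refed LKO against control, with a median of -1.94, and 4 of 10 were above 0 in the fasted contrast.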
